A study of Mus musculus with 4 samples.

Results

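Scavenger receptors are the surface and lysosomal proteins with which macrophages bind and take up modified lipoproteins, microbes, dead cells and spent proteins. Their RNA was described here through 10 genes, Cd36, Msr1, Marco, Olr1, Scarb1, Scarb2, Stab1, Cd163, Mrc1 and Cd68, chosen by symbol. All 10 were found among the 22700 rows of the deposited tables, and all 10 reached the level minimum of 20 normalised reads in at least 1 library, as did 13642 rows in all. The RNA came from marrow of 12-week-old male mice on the BKS background, kept in culture for 7 to 8 days. Diabetic db/db mice carry 2 copies of a splice mutation of the leptin receptor gene Lepr, labelled BKS.Cg-m+/+leprdb/J, and their control littermates, db/+, carry 1 copy and are labelled BKS.Cg-m+/+leprdb+/J. Marrow of each genotype was grown either with GM-CSF at 20 ng/ml, a factor whose marrow cultures hold both macrophages and dendritic-like cells, or with M-CSF at 10 ng/ml, the growth factor of the macrophage lineage. The 4 groups were thus GM-CSF db/db, GM-CSF db/+, M-CSF db/db and M-CSF db/+, with 1 library each, and the sources used here do not say whether a library held cells of 1 animal or of several.

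The receptors fall into structural classes that do not share ancestry but share ligands. CD36, SR-BI (Scarb1) and LIMP-2 (Scarb2) form class B, which crosses the membrane at both ends. CD36 takes up oxidised low-density lipoprotein and long-chain fatty acids, SR-BI exchanges cholesteryl esters with high-density lipoprotein, and LIMP-2 sits in the lysosomal membrane. SR-A (Msr1) and MARCO belong to class A, trimers with a collagen-like stalk that bind modified lipoproteins and bacteria. LOX-1 (Olr1) is a lectin-like receptor for oxidised lipoprotein, and macrosialin (Cd68) is a heavily glycosylated protein of late endosomes and lysosomes. Stabilin-1 (Stab1) clears the matrix protein SPARC and other ligands, CD163 clears haemoglobin bound to haptoglobin, and the mannose receptor CD206 (Mrc1) clears glycoproteins that end in mannose. Stab1, Cd163 and Mrc1 are widely used as markers of tissue-resident and alternatively activated macrophages.

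Promoters are shown for 3 of the members that differed between cultures, Olr1 and Cd68, higher in GM-CSF, and Stab1, lower in GM-CSF. RefSeq promoters of build GRCm38.p6 were matched by symbol for 8 of the 10 members, all but Msr1 and Scarb1. The 250 bases before the start site are given 5′ to 3′ from the reference strain, with capitals on every match, on either strand, to 1 of 4 motifs. The motifs were the core of PU.1 (GAGGAA), the myeloid master regulator, the site of AP-1 (TGACTCA), the core of MAF proteins (TGCTGAC) and the E-box of MITF and TFEB (CACGTG or CATGTG).
Olr1, chr6:129507166-129507415, strand minus: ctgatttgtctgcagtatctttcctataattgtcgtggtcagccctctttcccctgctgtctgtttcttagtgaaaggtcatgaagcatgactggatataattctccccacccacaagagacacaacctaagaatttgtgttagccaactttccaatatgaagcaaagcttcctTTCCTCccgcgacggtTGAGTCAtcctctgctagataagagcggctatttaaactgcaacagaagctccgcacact
Cd68, chr11:69666171-69666420, strand minus: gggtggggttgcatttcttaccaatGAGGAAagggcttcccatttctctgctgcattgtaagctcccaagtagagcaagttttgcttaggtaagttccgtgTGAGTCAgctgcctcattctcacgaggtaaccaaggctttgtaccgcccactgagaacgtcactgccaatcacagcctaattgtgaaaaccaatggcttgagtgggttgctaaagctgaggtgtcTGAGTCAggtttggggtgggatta
Stab1, chr14:31168642-31168891, strand minus: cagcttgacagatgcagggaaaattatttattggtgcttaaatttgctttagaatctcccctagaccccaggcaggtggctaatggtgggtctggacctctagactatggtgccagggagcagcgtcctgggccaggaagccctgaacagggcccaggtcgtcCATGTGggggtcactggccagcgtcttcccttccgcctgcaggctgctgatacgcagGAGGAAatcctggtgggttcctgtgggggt
The AP-1 site stood 1 time before Olr1 and 2 times before Cd68, in 2 of the 8 member promoters against 4.46% of all 32851 promoters of this length. The PU.1 core was in 5 of the 8 (Cd68, Marco, Mrc1, Olr1 and Stab1), against 23.3% of all promoters, and the E-box in 3 of the 8 (Mrc1, Scarb2 and Stab1), against 17.6%. The MAF core, in 3.81% of all promoters, matched none of the 8 windows. Of the members not shown, Marco, also higher in GM-CSF, held no AP-1 site, and Cd163, also lower, held no match to any motif. No motif overlapped another in the 3 promoters shown. A match describes letters in the reference genome, and no factor's binding was measured.

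The libraries held 28622697 reads in GM-CSF db/db, 27216098 in GM-CSF db/+, 27590733 in M-CSF db/db and 25603389 in M-CSF db/+, as recovered from the deposited values. Levels are normalised reads, the unit of the deposited tables, in which the authors scaled each library by its own TMM factor. Ratios carry 95% exact intervals on read pairs, which cover counting error only, since reads without molecular identifiers are not independent molecules. All 11 macrophage markers listed were detected in all 4 libraries, among them Csf1r, the M-CSF receptor, and Emr1, which encodes F4/80. Fibroblast and stromal markers were also present: the 15 listed summed to 346.5 and 309.7 normalised reads in GM-CSF db/db and db/+, with 3 and 1 of them at 0, and to 87959 and 31806 in M-CSF db/db and db/+, with none at 0. In RNA of whole cultures, fewer cells of a type and less RNA per cell cannot be told apart.

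The first question was how the growth factor of the culture related to receptor RNA. In GM-CSF cultures Olr1, Marco, Msr1 and Cd68 were higher and Stab1, Cd163 and Mrc1 lower than in M-CSF cultures, in both genotypes. The range was wide, with Olr1 at 24.5 times and Stab1 at 0.0235 times the M-CSF level in db/db marrow. Cd36, Scarb1 and Scarb2 lay between 1.16 and 1.36 times their M-CSF level. At least 2-fold, 3 members were higher and 3 lower in db/db marrow, against 11.3% and 15.8% of all 13642 genes, and 2 were higher and 3 lower in db/+ marrow, against 12.0% and 15.7%. Either way, 6 and 5 members were at least 2-fold apart, against 27.1% and 27.6% of genes. With reads scaled by library totals, 1 was higher and 3 were lower in db/db marrow, since Marco and Cd68 stood at log2 folds of 0.82 and 0.81. The share of all genes 2-fold apart under that scaling was not counted. Their median log2 fold in db/db marrow was -0.34 there, against 0.01 with the authors' factors.

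The main effect of culture type was tested with limma on log2(normalised reads + 5) in a model of culture type and genotype. The model has 1 residual degree of freedom, which comes from the difference between the genotypes, and takes the 2 libraries of a culture as each other's repeats once genotype is allowed for. All 10 members passed an adjusted p of 0.05, 7 higher and 3 lower in GM-CSF, where 57.1% of all genes passed, 29.8% higher and 27.3% lower. The 7 were 4 with scaling by library totals, where 16.8% of all genes passed higher and 46.7% lower. Without either GM-CSF library, which leaves 1 library in that culture, the folds of all 10 kept their direction. The members' median log2 fold was 0.36 in db/db and 0.27 in db/+ marrow, against 0.01 and 0.03 over all genes. With no filter on low values none of the 10 passed, and 0 of all 22700 genes did. Of the 10, 6 had an unadjusted p under 0.05, as did 8129 of the 22700. The prior degrees of freedom of that fit were 0.838 in place of 12.9.

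**Figure D1:**
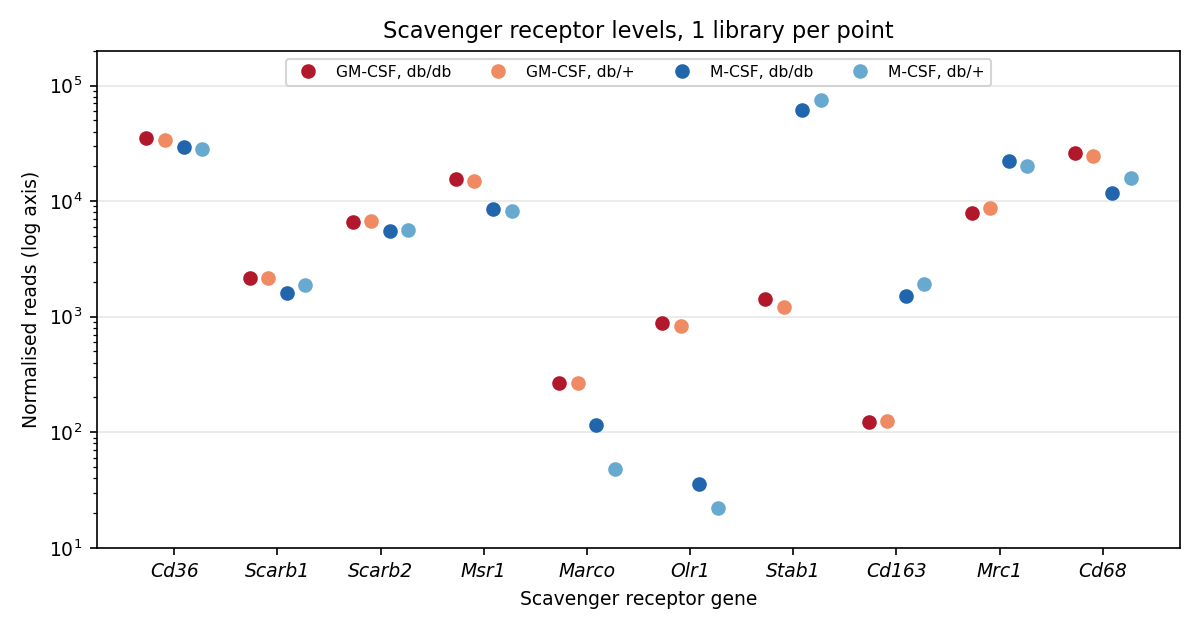
Normalised reads (log axis) of the 10 scavenger receptor genes (x axis), with 1 point for each of the 4 libraries and no error bars, since each group has 1 library. The GM-CSF points lie above the M-CSF points for Marco and Olr1 and below them for Stab1, Cd163 and Mrc1, while Cd36 stays between 28377 and 35342 in all 4 libraries.

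Olr1 was nearly silent in M-CSF. It stood at 874.6 normalised reads in GM-CSF db/db against 35.7 in M-CSF db/db, which is 24.5 times as high (15.7 to 40.2). In db/+ marrow it stood at 838.9 in GM-CSF against 21.9 in M-CSF, a ratio of 38.3 (21.4 to 76.1). The M-CSF values rest on 41 and 23 reads in db/db and db/+, above the floor of 3 read pairs at 5.23 and 5.71 normalised reads. Both GM-CSF libraries were far above both M-CSF libraries, and the limma log2 fold was 4.70 (SE 0.21, adjusted p = 1.13e-10).

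The class A receptors were both higher in GM-CSF, Msr1 at a high level and Marco at a low one. Msr1 stood at 15644 in GM-CSF db/db against 8536 in M-CSF db/db, a ratio of 1.83 (1.77 to 1.90), and at 14996 against 8250 in db/+ marrow, a ratio of 1.82 (1.75 to 1.89). The ratios of the 2 genotypes were nearly equal, with a limma log2 fold of 0.87 (SE 0.086, adjusted p = 6.37e-07). Marco, which marks alveolar and marginal zone macrophages in the mouse, stood at 264.7 in GM-CSF db/db against 115.0 in M-CSF db/db, a ratio of 2.30 (1.69 to 3.15). In db/+ marrow it stood at 269.2 in GM-CSF against 48.5 in M-CSF, a ratio of 5.55 (3.60 to 8.88). The GM-CSF libraries were close to each other and the M-CSF libraries were not, so the Marco ratio was larger in db/+ than in db/db marrow, and the limma log2 fold over both was 1.76 (SE 0.27, adjusted p = 4.90e-05).

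Class B receptors differed least between the cultures. Cd36 was abundant throughout, at 35342 in GM-CSF db/db against 29180 in M-CSF db/db, a ratio of 1.21 (1.19 to 1.24), and at 34088 against 28377 in db/+ marrow, a ratio of 1.201 (1.17 to 1.23). Scarb2 stood at 6554 in GM-CSF db/db against 5516 in M-CSF db/db and at 6783 against 5639 in db/+ marrow, ratios of 1.19 (1.13 to 1.25) and 1.203 (1.14 to 1.27). Scarb1 stood at 2173 in GM-CSF db/db against 1593 in M-CSF db/db and at 2157 against 1866 in db/+ marrow, ratios of 1.36 (1.25 to 1.49) and 1.16 (1.06 to 1.27). Their limma log2 folds were 0.27, 0.26 and 0.33 for Cd36, Scarb2 and Scarb1, with adjusted p-values of 0.0350, 0.0150 and 0.00809. When the reads were scaled by library totals in place of the authors' factors, the median of all genes moved from 0.02 to -0.31 and these 3 folds turned to -0.071, -0.084 and -0.013, with limma adjusted p-values of 0.525, 0.372 and 0.908. The direction of the 3 class B receptors therefore depended on the scaling, while that of the other 7 members did not under the 3 scalings run.

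**Figure D2:**
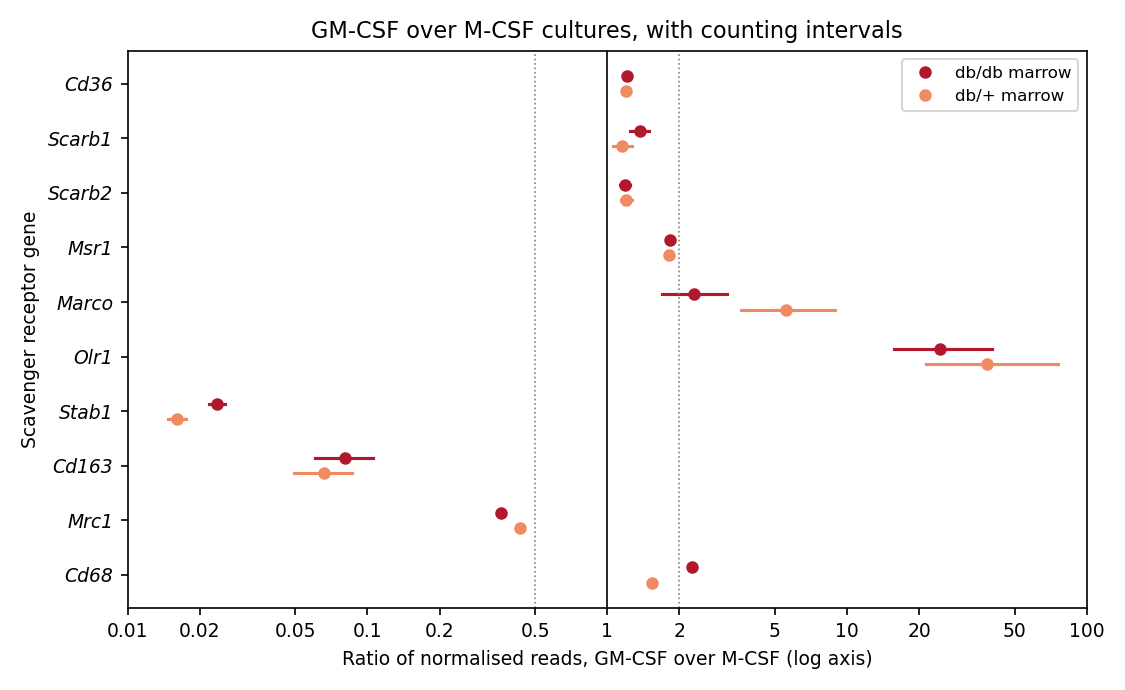
Ratio of normalised reads, GM-CSF over M-CSF (log axis), for each receptor (rows), in db/db and db/+ marrow, with bars for 95% exact counting intervals and dotted lines at 2-fold. Ratios run from 0.0161 for Stab1 to 38.3 for Olr1, both in db/+ marrow, and the class B receptors sit between 1.16 and 1.36.

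Stab1, Cd163 and Mrc1 were the members that fell in GM-CSF. Markers of several cell types fell beside them by limma, which called 27.3% of all genes lower and 29.8% higher. Called lower were 8 of 11 macrophage markers (median log2 fold -1.76), 14 of 14 stromal markers (-7.36) and 8 of 9 neutrophil markers (-5.24). So were 6 of 6 erythroid and megakaryocyte markers (-2.21) and 4 of 5 markers of B and plasma cells (-2.22). Of 4 kept mast cell and basophil markers, 3 were called lower and 1, Kit, higher. That list summed to 2550 and 2619 in GM-CSF db/db and db/+, against 324.1 and 292.0 in M-CSF db/db and db/+. Kit made up 2540 and 2614 of its GM-CSF sums. Dendritic cell markers were split, with 7 of 12 called higher and 4 lower (median 0.40). With scaling by library totals 4 of these were called higher and 5 lower, against 16.8% and 46.7% of all genes. The erythroid and megakaryocyte list summed to 2081 and 2093 normalised reads in GM-CSF db/db and db/+, with 2 and 1 of 8 at 0, against 10150 and 9199 in M-CSF db/db and db/+, with none at 0. The neutrophil list summed to 25075 and 23567 in GM-CSF db/db and db/+, with Mpo and Camp at 0 in db/db, against 17860 and 17088 in M-CSF db/db and db/+, and its 1 gene called higher, Mmp8, made up 24136 and 22757 of the GM-CSF sums. The part of these cells in the receptor values was not tested. Stab1, among the 24 most abundant genes of either M-CSF library, stood at 1430 in GM-CSF db/db against 60824 in M-CSF db/db, a ratio of 0.0235 (0.0217 to 0.0254). In db/+ marrow it stood at 1216 in GM-CSF against 75415 in M-CSF, a ratio of 0.0161 (0.0148 to 0.0175), or 62.0-fold lower. The limma log2 fold was -5.68 (SE 0.11, adjusted p = 1.49e-14). In the GENCODE annotation of GRCm38 the exons of Stab1 overlap those of Nt5dc2 on the opposite strand, and the sources used here do not say whether the libraries keep strand. Nt5dc2 was itself at 604.6 and 538.4 in GM-CSF db/db and db/+, against 3470 and 4093 in M-CSF db/db and db/+, so its reads cannot be told apart from those of Stab1 where the exons overlap. The other 9 members have no such overlap there.

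Cd163 stood at 122.6 in GM-CSF db/db against 1520 in M-CSF db/db, a ratio of 0.0807 (0.0606 to 0.106), and at 125.6 against 1915 in db/+ marrow, a ratio of 0.0656 (0.0492 to 0.0859). The GM-CSF values rest on 114 and 112 reads, and the limma log2 fold was -3.73 (SE 0.14, adjusted p = 1.22e-11). Mrc1 was lower but stayed abundant in GM-CSF, at 7951 in db/db against 22022 in M-CSF db/db and at 8662 against 20069 in db/+ marrow. The ratios were 0.361 (0.348 to 0.375) and 0.432 (0.416 to 0.448), and the limma log2 fold was -1.34 (SE 0.094, adjusted p = 1.43e-08). For each of the 3 receptors both GM-CSF libraries lay below both M-CSF libraries. With 1 library per group that order is a description, and the share of all genes so ordered was not counted.

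Cd68, often used as a general macrophage marker, rose in GM-CSF. It stood at 26213 in GM-CSF db/db against 11645 in M-CSF db/db, a ratio of 2.25 (2.18 to 2.32), and at 24556 against 15997 in db/+ marrow, a ratio of 1.54 (1.49 to 1.58). The limma log2 fold was 0.89 (SE 0.12, adjusted p = 1.34e-05). The 2-fold mark was passed in db/db marrow alone, where the M-CSF library was the lower of the 2. Scaled by library totals it was passed in neither genotype, at log2 folds of 0.81 in db/db and 0.29 in db/+, and whether the culture fold differed between genotypes could not be tested with 1 library each.

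Levels were compared between receptors per kilobase of the longest protein-coding GENCODE transcript. Cd68 ranked first in all 4 libraries, at 21311 and 19964 normalised reads per kb in GM-CSF db/db and db/+, and at 9467 and 13005 in M-CSF db/db and db/+. Cd36 followed in GM-CSF at 10398 and 10029 in db/db and db/+, then Msr1 at 4303 and 4124. Mrc1 and Scarb2 came next in GM-CSF and lay close together, Mrc1 at 1480 and 1612 and Scarb2 at 1395 and 1444 in db/db and db/+. The order below them in GM-CSF was Scarb1, Olr1, Stab1, Marco and Cd163, at 862.0, 244.8, 178.7, 137.5 and 27.6 in db/db, the same order as in db/+. In M-CSF, Stab1 and Cd36 shared the places behind Cd68, Stab1 at 7604 and 9428 and Cd36 at 8585 and 8349 in db/db and db/+, so that their order differed between the 2 libraries. Stab1 thus had 7 receptors above it per kb in both GM-CSF libraries, against 2 in M-CSF db/db and 1 in M-CSF db/+. Mrc1, Msr1, Scarb2, Scarb1, Cd163, Marco and Olr1 filled the remaining M-CSF places in both libraries, down to 10.0 and 6.13 for Olr1 in db/db and db/+. Neighbours closer than the gap between libraries, such as Mrc1 and Scarb2 in GM-CSF, cannot be ranked, and the lengths are those of 1 transcript per gene.

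**Figure D3:**
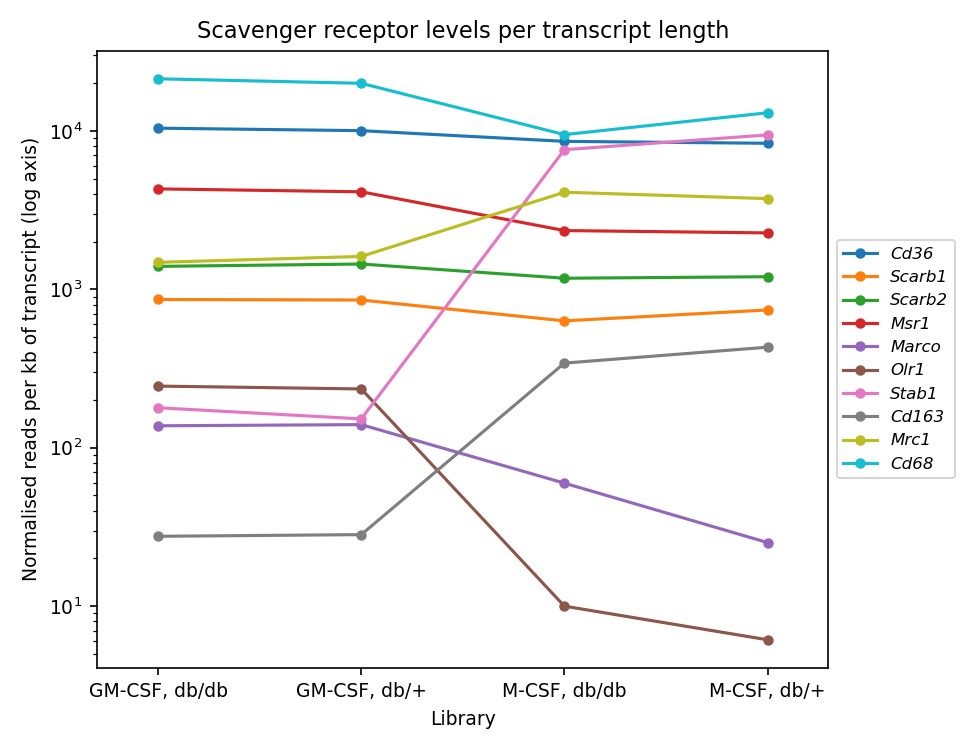
Normalised reads per kilobase of transcript (log axis) for each receptor in the 4 libraries (x axis), 1 point per library, with lines that only link points of a gene. Cd68 is first in every library, and Stab1 stands at 178.7 in GM-CSF db/db and 152.0 in GM-CSF db/+, against 7604 in M-CSF db/db and 9428 in M-CSF db/+.

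The second question was how receptor RNA of diabetic marrow compared with that of control marrow in each culture. In M-CSF, Cd68, Stab1, Cd163 and Scarb1 were lower and Marco, Mrc1 and Cd36 higher in db/db than in db/+, by counting intervals that exclude 1. The share of all genes with such an interval was not counted in either culture. For abundant genes small differences suffice, and the M-CSF fold of Cd36 lay at percentile 52.7 of all kept genes. Marco alone was at least 2-fold apart, 1 of 10 members, against 5.83% of all genes, and with a pseudocount of 20 its log2 fold was 0.98 and the count 0. It was higher, where 5.05% of genes were, and 0 members were 2-fold lower, where 0.777% were. The members' median log2 fold was 0.0042, against 0.02 over all genes. With 1 library per genotype these differences have no replicate check.

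Cd68 had the lowest ratio in M-CSF, at 11645 in db/db against 15997 in db/+, 0.728 (0.705 to 0.752). Its log2 fold of -0.46 lay at percentile 4.65 of all 13642 kept genes. It lay at percentile 0.69 of the 5061 genes with a mean of at least 1000 normalised reads over the 4 libraries, a limit chosen after the values were seen. Stab1 stood at 60824 in db/db against 75415 in db/+, or 0.807 times (0.795 to 0.818), and Cd163 at 1520 against 1915, a ratio of 0.794 (0.724 to 0.870). Scarb1, at 1593 in db/db against 1866 in db/+, had a ratio of 0.854 (0.779 to 0.935). These 4 receptors were lower in the library that held more stromal transcripts, while Marco, Mrc1 and Cd36 were higher in it. The macrophage markers had a median log2 fold of -0.07 in the same comparison. Of 14 stromal markers that reached the minimum, 12 were at least 2-fold higher, against 5.05% of all genes, with a median of 1.36. The part of that in the receptor ratios was not tested.

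Marco stood at 115.0 in M-CSF db/db against 48.5 in M-CSF db/+, or 2.37 times (1.48 to 3.91) from 132 and 51 reads. Olr1 also leaned higher, at 35.7 in db/db against 21.9 in db/+, but its interval of 0.757 to 3.70 includes 1, so no difference was detectable at this depth. Mrc1 stood at 22022 in db/db against 20069 in db/+, or 1.10 times (1.07 to 1.13), opposite in direction to Stab1 and Cd163. Cd36, at 29180 in db/db against 28377 in db/+, had a ratio of 1.03 (1.01 to 1.05). Msr1 and Scarb2 had ratios of 1.03 (0.993 to 1.08) and 0.978 (0.930 to 1.03), so no difference was detectable for them at this depth.

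In GM-CSF no member was at least 2-fold apart between genotypes, 0 of 10 higher and 0 of 10 lower, against 1.06% of all genes, 0.586% higher and 0.476% lower. Stab1 differed most, at 1430 in db/db against 1216 in db/+, or 1.18 times (1.05 to 1.32). Mrc1 stood at 7951 in db/db against 8662 in db/+, or 0.918 times (0.877 to 0.961), and Cd68 at 26213 against 24556, a ratio of 1.07 (1.04 to 1.10). Each of these 3 leaned the other way from its M-CSF ratio. Cd36 and Msr1 had ratios of 1.04 (1.01 to 1.06) and 1.04 (1.01 to 1.08), and the intervals of Marco, Olr1, Scarb1, Scarb2 and Cd163 included 1. For Marco that interval was 0.758 to 1.27, with 264.7 in db/db against 269.2 in db/+.

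**Figure D4:**
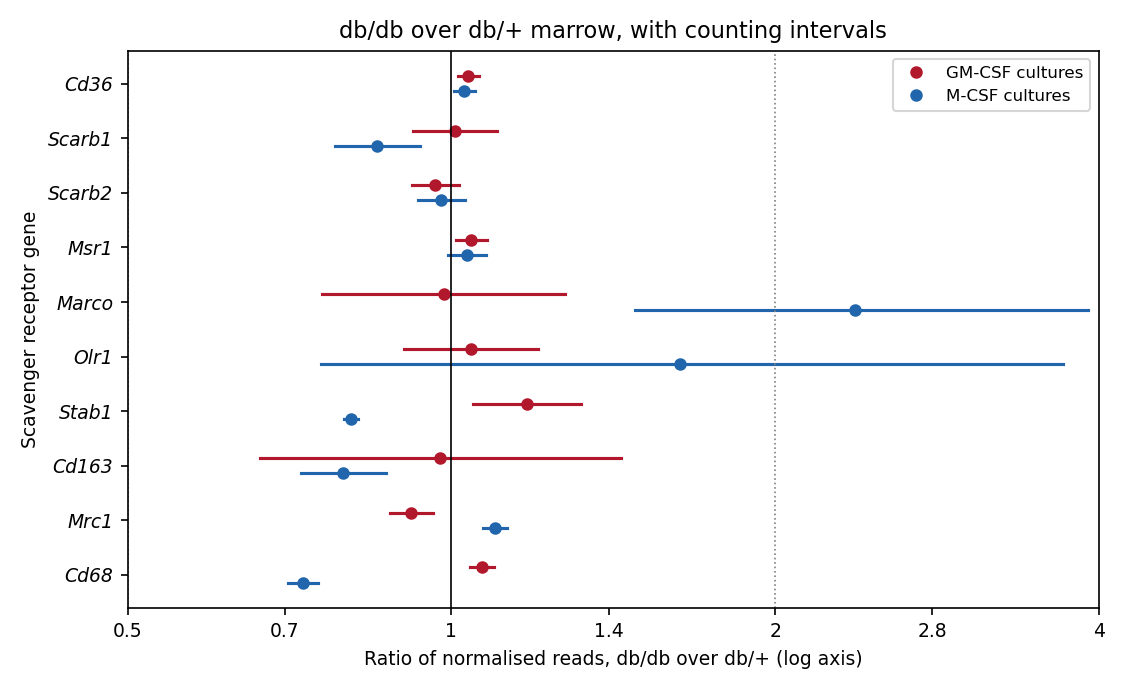
Ratio of normalised reads, db/db over db/+ (log axis), for each receptor (rows) in GM-CSF and M-CSF cultures, with bars for 95% exact counting intervals and a dotted line at 2-fold. GM-CSF ratios lie between 0.918 and 1.18, while M-CSF ratios run from 0.728 for Cd68 to 2.37 for Marco.

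The main effect of genotype over both cultures passed for none of the 10 members in limma, where 0.00733% of all genes (1 of 13642) passed. At an unadjusted p under 0.05 it gave 1 of the 10, Marco, with a log2 fold of 0.57 (SE 0.27, adjusted p = 0.9996), against 603 of all 13642 genes. The edgeR quasi-likelihood test and DESeq2 on the recovered reads also called 0 of the 10, against 0.755% and 0.0147% of all genes. The limma fit estimates 1 genotype effect for both cultures, and the ratios of Cd68, Stab1 and Mrc1 pointed opposite ways in the 2 cultures.

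Among 22 other genes of the scavenger receptor classes found in the table, 18 reached the minimum, and limma called 4 higher and 10 lower in GM-CSF, where 29.8% of all genes were higher and 27.3% lower, with a median log2 fold of -0.74 against 0.02 over all genes. Clec7a, the beta-glucan receptor Dectin-1, rose to 29126 and 28171 in GM-CSF db/db and db/+, against 2665 and 3058 in M-CSF db/db and db/+. Cd5l, a secreted protein of the cysteine-rich scavenger family made by tissue macrophages, fell to 39.8 and 23.6 against 4001 and 4666. Stab2, the paralogue of Stab1 and a hyaluronan receptor of sinusoidal endothelium, was at 23.7 and 12.3 against 318.0 and 376.7. Of 12 endothelial markers, Stab2 among them, 6 reached the minimum, and limma called 3 higher and 3 lower in GM-CSF, against 29.8% and 27.3% of all genes. Pecam1 and Eng fell, as Stab2 and Stab1 did, Pecam1 to 75.3 and 69.5 in GM-CSF db/db and db/+, against 659.6 and 512.7 in M-CSF db/db and db/+, and Eng to 242.1 and 272.6 against 894.0 and 1249. Vwf, Kdr and Cdh5 rose, with Vwf at 8417 and 8578 in GM-CSF db/db and db/+, against 261.4 and 254.9 in M-CSF db/db and db/+, while Emcn, Tek and Robo4 stayed at or under 6.1 in every library. The list summed to 10921 and 11283 in GM-CSF db/db and db/+, most of it Vwf, and to 2288 and 2629 in M-CSF, with Emcn at 0 in GM-CSF db/db, Lyve1 at 0 in M-CSF db/db and none at 0 in the other 2 libraries, and its part in the receptor values was not tested.

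Scara3, a class A relative, was at 10.8 and 10.1 in GM-CSF db/db and db/+, against 177.7 and 68.5 in M-CSF db/db and db/+. It was 1 of 3 of the other receptors at least 2-fold higher in M-CSF db/db than in M-CSF db/+, where 5.05% of all genes were. The others were Colec12, a collectin of class A, at 5252 against 2308, and Scarf2, a class F receptor, at 176.0 against 66.6. In the mannose receptor family the endocytic collagen receptor Mrc2 was at 1132 in M-CSF db/db against 409.9 in M-CSF db/+, and at 2.2 and 2.3 in GM-CSF. Ly75, the dendritic receptor DEC-205, was at 4231 and 4434 in GM-CSF db/db and db/+, against 426.1 and 145.5 in M-CSF db/db and db/+. Mrc2 and Pla2r1 fell in GM-CSF with Mrc1 and Ly75 rose, so the 4 genes of that family did not move as one. In M-CSF the stromal marker sum given above was higher in db/db than in db/+, as were Mrc2, Scara3, Colec12, Scarf2 and Ly75. Colec12 was at 2360 and 2398 in GM-CSF db/db and db/+, close to its M-CSF db/+ level. The part of stromal cells in these values was not tested.

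Of 23 genes of lipoprotein and lipid uptake, which take over lipid once a receptor has bound it, limma called 15 higher and 5 lower in GM-CSF, against 29.8% and 27.3% of all genes, with a median log2 fold of 0.87. The fatty acid carriers Fabp4 and Fabp5 were at 8627 and 19663 in GM-CSF db/db, against 687.5 and 1693 in M-CSF db/db. Abcg1, which exports cholesterol to lipoprotein particles, was at 27319 against 4524 in the same libraries. Apoe, by contrast, was at 29369 in GM-CSF db/db against 258526 in M-CSF db/db. Pparg, a nuclear receptor known to activate Cd36, was at 2780 against 1511 in db/db and at 2743 against 1508 in db/+ marrow, a limma log2 fold of 0.87 (adjusted p = 7.71e-07), beside the 0.27 of Cd36. Vldlr, which takes up triglyceride-rich lipoprotein, was the 1 of the 23 at least 2-fold apart by genotype in M-CSF, where 5.83% of all genes were, at 361.6 in db/db against 131.3 in db/+. Its log2 fold of 1.43 stood beside the median of 1.36 of the stromal markers in the same libraries, whose part in it was not tested.

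Of 24 transcription factor genes known in the control of macrophage receptors, limma called 13 higher and 6 lower in GM-CSF, against 29.8% and 27.3% of all genes, with a median of 0.35. Scaled by library totals it called 8 higher and 9 lower with a median of 0.0071, against 16.8% and 46.7% of all genes. Maf, a regulator of the resident macrophage programme, fell to 420.6 and 369.0 in GM-CSF db/db and db/+, against 15406 and 17915 in M-CSF db/db and db/+. Spic, which controls the identity of iron-recycling splenic macrophages, was at 3.2 and 1.1 against 210.9 and 202.6. Bhlhe40 and Egr2 rose, at 7860 and 3936 in GM-CSF db/db against 228.3 and 289.3 in M-CSF db/db. The PU.1 gene, listed as Sfpi1, had a limma log2 fold of 0.08 and did not pass (adjusted p = 0.468).

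The lysosomal list, companions of Scarb2 and Cd68, had 8 of 11 kept genes higher and 0 lower in GM-CSF by limma, against 29.8% and 27.3% of all genes, with a median log2 fold of 0.62. With scaling by library totals the count was 6 higher and 2 lower, against 16.8% and 46.7%. Of the genes of haemoglobin and haem handling, downstream of CD163, 5 of 12 were called higher and 5 lower, and 5 higher and 7 lower with scaling by library totals, both beside the same shares of all genes. Hp, the gene of haptoglobin, was at 1466 in GM-CSF db/db against 257.0 in M-CSF db/db, and Slc40a1, the iron exporter ferroportin, at 1638 against 6757. Of 5 kept partners of SR-BI, 2 were called higher and 3 lower, against 29.8% and 27.3% of all genes. Its adaptor Pdzk1 was at 224.8 in GM-CSF db/db against 114.1 in M-CSF db/db.

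Of 13 partners of CD36 in adhesion and signalling, limma called 5 higher and 5 lower in GM-CSF, against 29.8% and 27.3% of all genes, and 2 higher and 7 lower with scaling by library totals, against 16.8% and 46.7%, so that neither count was far from its background. The tetraspanin Cd9 was at 33809 in GM-CSF db/db against 3237 in M-CSF db/db, and the kinase Fyn at 307.7 against 1047. Of 9 partners and ligands of stabilin-1, 3 were called higher and 1 lower, and 3 higher and 5 lower with scaling by library totals, beside the same shares of all genes. The ligand Sparc was at 16.1 and 4.5 in GM-CSF db/db and db/+, against 13327 and 4400.0 in M-CSF db/db and db/+, so that Sparc, like Stab1, was higher in M-CSF than in GM-CSF. Within M-CSF it was higher in db/db than in db/+ while Stab1 was lower, and Sparc is also 1 of the 15 stromal markers listed. The chitinase-like genes Chi3l3 and Chi3l4, also on that list, were at 32672 and 6768 in GM-CSF db/db against 1107 and 159.4 in M-CSF db/db. Near-identical sequence makes the division of reads between these 2 genes uncertain. Chid1, a further gene of the list, was at 1446 in GM-CSF db/db against 1399 in M-CSF db/db. It did not pass in limma (adjusted p = 0.714).

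Mrc1 and Cd163 are commonly read as markers of alternative activation, and the other 15 kept genes of that list were split, 10 called higher and 5 lower in GM-CSF by limma, against 29.8% and 27.3% of all genes, with a median log2 fold of 2.12. Arg1, arginase 1, was at 14108 in GM-CSF db/db against 30.5 in M-CSF db/db, and the chemokine gene Ccl17 at 2965 against 1.7. Pdcd1lg2, which encodes PD-L2, was at 1024 against 13.1. Folr2, a folate receptor of resident macrophages, was at 14.0 against 2100 and so lay on the side of Mrc1, Cd163 and Stab1.

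**Figure D5:**
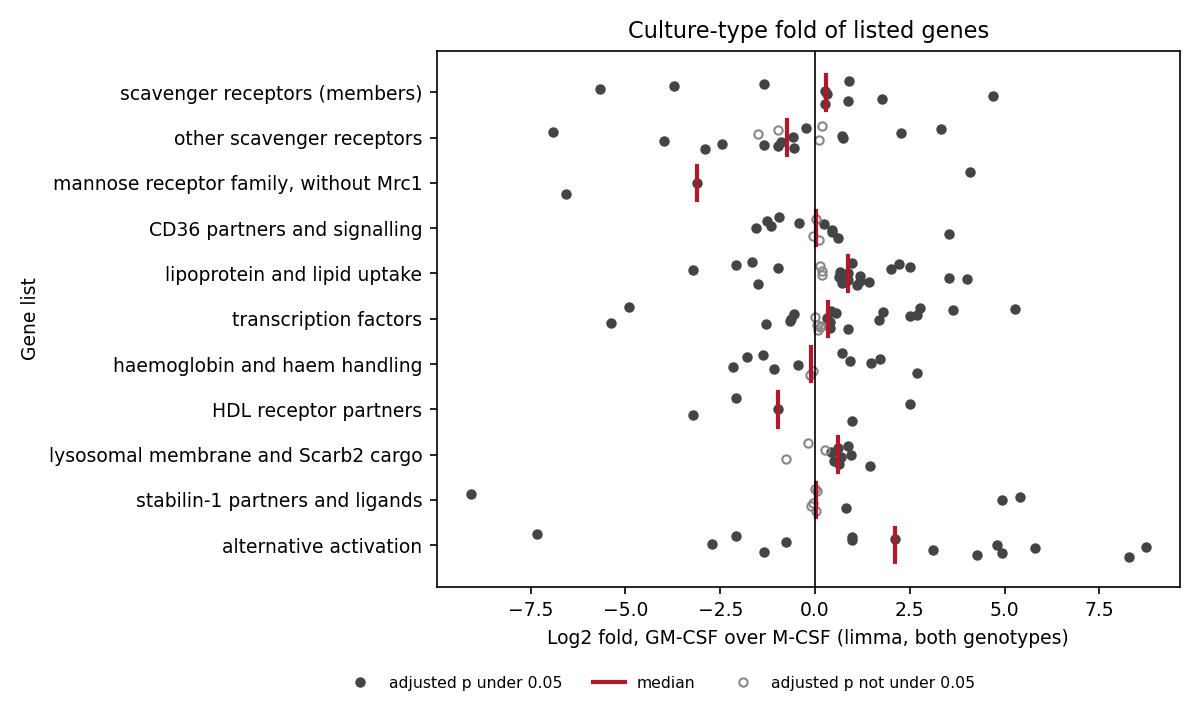
Log2 fold of GM-CSF over M-CSF from limma over both genotypes (x axis), 1 point per gene, for the 10 receptors and the lists of related genes (rows), filled where the adjusted p was under 0.05, with a bar at each median. The receptors spread from -5.68 to 4.70, and the lipid uptake list, with a median of 0.87, has 15 of its 23 points called on the right.

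The genes nearest to each receptor were sought among 10160 others that reached 200 normalised reads, by the Euclidean distance of the 4 log2 values after subtraction of each gene's mean. Few genes came within 0.5 of the patterns of Stab1 (13), Cd163 (24), Olr1 (35) and Marco (37), whereas 5435, 5463 and 4892 came within 0.5 of those of Cd36, Scarb2 and Scarb1. Near Stab1 were 2810055G20Rik and the membrane protein gene Ms4a6c, at 0.188 and 0.195. For Cd163 they were Pdgfb, Fyb and Ifit1 at 0.123, 0.238 and 0.244, and for Olr1 4933430I17Rik, Ptpn3 and Sobp at 0.0920, 0.153 and 0.159. Marco was nearest to Cd109, Pls3 and Epas1, at 0.0757, 0.112 and 0.157. Cd109 shared its step between the M-CSF libraries, at 468.8 in M-CSF db/db against 193.1 in M-CSF db/+, and at 1011 and 1010.5 in GM-CSF db/db and db/+. Mrc1 was nearest to Socs5, Ulk2 and Slc4a7, Cd68 to Sh2d3c, Fas and Selplg, and Msr1 to genes that include Atg4a and Atp5e. Cd36 was nearest to Usp16, Nfx1 and BC024479, Scarb1 to Fkbp8, Cenpb and Myo1f, and Scarb2 to Ap3b1, Retsat and Ppm1b. With 4 libraries such likeness is a description and says nothing of shared control.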

How the data were processed

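The RNA of cultured bone marrow cells was sequenced as read pairs after removal of ribosomal RNA, per the labels' protocols. The deposited tables hold a normalised signal per gene, which the authors made by dividing counts by 1 size factor per library (TMM, by the names of the deposited files) and rounding to 1 decimal. TopHat 1.2.0, edgeR and the builds mm8 and mm9 are named in the submitters' processing notes. The sources used here give no counter, annotation, strand setting or filter. Whole reads were recovered by dividing by the value of 1 read (1.08 and 1.12 in GM-CSF db/db and db/+, 0.871 and 0.951 in M-CSF db/db and db/+). With a tolerance of 0.1, 100% of low and 99.7% to 99.9% of all values came out whole. Mates appear to have been counted singly, so intervals used pairs.

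Genes at 20 or more in any library were kept (13642 of 22700 rows). Design choices allowed for counts or normalised values, and limma 3.58.1 on log2(value + 5) with a variance trend was the main test, with Benjamini-Hochberg adjustment over all kept genes, two-sided, checked on simulated data. Alternatives were edgeR 4.0.16, DESeq2 1.42.0, other scalings, pseudocounts, filters and models, and each library left out. With 1 library per group no pairwise test exists. Intervals are exact binomial. The members and lists were chosen with earlier results of these data known. Named list genes were the 4 with the largest culture fold, those at least 2-fold apart by genotype in M-CSF, and the 3 nearest to each member, and a few of these are not reported here; Pparg, Sfpi1, Nt5dc2, Csf1r, Emr1, Car4, Mmp12, Lyz2 Mpo, Camp, Mmp8 and the endothelial markers were named after their values were seen. Of listed symbols, 5 were matched through RefSeq synonyms. Of the symbols, 38 were repeated and 25 had the form of a date. No per-sample columns were left unused.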

Additional observations from a re-analysis of the deposited data

Results flagged for a closer look

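For 5 members the db/db over db/+ fold pointed one way in M-CSF and the other way in GM-CSF, which is 1 library against 1 in each culture, and the difference was not tested. On the log2 scale, M-CSF minus GM-CSF, it was 1.19 for Marco, -0.55 for Cd68, -0.54 for Stab1, 0.26 for Mrc1 and -0.24 for Scarb1. Written as the M-CSF ratio over the GM-CSF ratio with an approximate 95% interval for counting error, these were 2.41 (1.43 to 4.06), 0.682 (0.654 to 0.711), 0.686 (0.612 to 0.769), 1.195 (1.13 to 1.26) and 0.847 (0.747 to 0.961) in the same order of genes. For Marco and Scarb1 the GM-CSF ratio itself was 0.983 and 1.01, with intervals that include 1.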

How the results depend on the processing

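The calls for culture type held in part, and the fit with no filter on low values called 0 of all 22700 genes. Msr1, Marco, Olr1, Stab1, Cd163, Mrc1 and Cd68 were called in the same direction under 13 of 14 alternatives, all but the fit with no filter on low values, which called 0 of the 10 members. Leaving out each library in turn, without the genotype term, gave 7 to 10. The calls of Cd36, Scarb1 and Scarb2 were lost in 7, 6 and 7 alternatives. Scaled by library totals, the fold of GM-CSF over M-CSF reversed for Cd36 (-0.081 in db/db, -0.061 in db/+, -0.071 over both), Scarb2 (-0.11, -0.059 and -0.084) and Scarb1 (-0.12 in db/+, -0.013 over both). That scaling called 2295 genes higher and 6368 lower in GM-CSF, against 4062 and 3725 with the authors' factors. The genotype fold of Mrc1 in limma, 0.0052, reversed to -0.0020 with DESeq2 size factors, -0.0069 in edgeR and -0.009 in DESeq2, none of them called. With a pseudocount of 20, 0 members in place of 1 (Marco) were at least 2-fold apart by genotype in M-CSF. With scaling by library totals and without a variance trend, the 7 members called higher in GM-CSF were 4. Of all genes, 16.8% and 21% were called higher there. The 7 were 5 in edgeR and DESeq2, where 27.6% and 19.9% of all genes were higher. With DESeq2 size factors they were 6, against 28.3%. The 3 called lower were 3 in each of these 5 settings. In the same order, 46.7%, 21.6%, 29.2%, 19.5% and 28.4% of all genes were called lower. Scaled by library totals, 4 members in place of 6 were at least 2-fold apart by culture in db/db marrow, since Marco and Cd68 had log2 folds of 0.82 and 0.81. The share of all genes 2-fold apart under that scaling was not counted. Except where the filter or scaling is named, the cause was not tested. Depth limits Olr1 in M-CSF most. No paired analysis was possible because the labels number no replicates.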

Other observations

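Marco is a marker of alveolar macrophages, and the other 9 kept genes of that marker list were all called higher in GM-CSF by limma. Of all genes 29.8% were called higher and 27.3% lower. The 9 had a median log2 fold of 5.42 and the same 9 calls under each of the 3 scalings. Car4, a carbonic anhydrase, was at 414.2 and 445.3 normalised reads in GM-CSF db/db and db/+ and at 0 in both M-CSF libraries. Car4 and Ear1, among others, reached the minimum of 20 in GM-CSF alone, so that the filter partly set their direction. Krt79 and Fabp1, also listed, did not reach it in any library. Mmp12, macrophage elastase, was at 426470 and 401959 in GM-CSF db/db and db/+, against 4491 and 4085 in M-CSF db/db and db/+. Marco itself, at 264.7 and 269.2 in GM-CSF db/db and db/+, lay at percentile 35.9 and 36.3 of the kept genes there. Of the macrophage markers, 8 of 11 were called lower in GM-CSF and 1 higher, beside the same shares of all genes. The 1 higher was the lysozyme gene Lyz2, at 621787 in GM-CSF db/db against 242719 in M-CSF db/db. Of 7 kept osteoclast markers, among which lysosomal genes are common, 5 were called higher and 2 lower in GM-CSF, again beside those shares.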
